A study of Mus musculus with 16 samples.

Results

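Mitochondrial carriers are the proteins that let metabolites, nucleotides, cofactors and iron cross the inner membrane of mitochondria. The set described here held every gene whose symbol starts with Slc25a in the table of raw counts, together with Ucp2 and Ucp3, 42 of the 13320 genes in that table. The members were chosen by name and not by their values, although the set was proposed with earlier results of these data known. All 42 matched a gene of the GENCODE M21 annotation by symbol. Other genes of the family are not analysed here, and Ucp1, the uncoupling protein of brown fat, is in the table but is not a member.

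The values came from messenger RNA sequencing of quadriceps muscle of male CD2F1 mice, aged 8 weeks at the start, in 16 libraries, 4 in each of 4 groups. The mouse colon carcinoma line C26 is known to cause muscle wasting as it grows. Splenic C26 mice received the cells by injection into the spleen, a route that seeds tumours in the liver, and sham mice had the operation with saline. Subcutaneous C26 mice received the cells under the skin. What the control mice received is not given in the labels. The titles of sham and splenic C26 libraries share a prefix, and those of control and subcutaneous C26 libraries share a different one. Comparisons were therefore made within a prefix. Whether each library is a different animal is not stated, so the p-values rest on spread between libraries that may be technical.

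Most Slc25 proteins exchange one solute for another. In muscle the ADP/ATP carriers pass the product of oxidative phosphorylation to the contractile apparatus, the phosphate carrier returns its substrate, and the carriers of the malate-aspartate shuttle bring reducing equivalents from the cytosol to the respiratory chain. The uncoupling proteins belong to the same family. Ucp3 is typical of skeletal muscle and is known to follow the supply of fatty acids, and Ucp2 is common in immune cells.

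Levels are in CPM, the counts of a gene for each 1 M counts of its library after TMM scaling of library sizes. Library totals were 25.9 to 34.9 M counts, and 1 member, Slc25a48, had a count of 0 in a library. Fold changes are on the log2 scale with their standard error (SE). The SE was derived as the absolute log2 fold change divided by the square root of the F statistic of edgeR's test. Adjusted p-values come from edgeR's quasi-likelihood test with Benjamini-Hochberg adjustment over all 13320 genes, and a member passed at an adjusted p below 0.05. Muscle fibre markers were high in every library: all 10 were measured, and they summed to 118001 to 261989 CPM. Splenic C26 replicate 1 and subcutaneous C26 replicate 3 stood apart from the rest. On the first principal component, which held 65.4% of the variance, they lay at -6.31 and 6.0, between the tumour-free libraries at -60.8 to -55.4 and the other tumour libraries at 64.6 to 93.3. In bulk tissue, fewer cells of a type and less RNA per cell cannot be told apart.

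In splenic C26 against sham, 11 members rose, 12 fell and 19 did not pass the test. The share that passed was 54.8% of members, close to the 52.0% of all genes. In subcutaneous C26 against control, 8 rose, 15 fell and 19 did not pass, again 54.8% of members against 50.0% of all genes. By direction, 26.2% of members rose and 28.6% fell in splenic C26, where 28.1% of all genes rose and 23.9% fell. In subcutaneous C26 19.0% rose and 35.7% fell, where 27.0% of all genes rose and 23.1% fell. The median log2 fold change of the members was -0.07 in splenic C26 and -0.10 in subcutaneous C26, beside -0.03 and -0.02 for all genes. The shares that passed in either direction were near those of all genes in both comparisons. By direction, more members than genes in general were lower and fewer were higher in subcutaneous C26, a difference that was not tested. Changes of at least 2-fold that passed numbered 7 higher and 6 lower in splenic C26, where they made up 11.7% and 12.8% of all genes, and 6 higher and 8 lower in subcutaneous C26, against 9.65% and 12.9% of all genes.

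With upper-quartile scaling of the libraries the median of all genes shifted to -0.24 in splenic C26 and -0.26 in subcutaneous C26, and the members split into 7 higher and 17 lower in the first comparison and 7 higher and 18 lower in the second. Called as higher here but not with that scaling were Slc25a20, Slc25a22, Slc25a30 and Slc25a44 in splenic C26 and Slc25a44 in subcutaneous C26. Called as lower with that scaling but not here were Slc25a4, Slc25a14, Slc25a16, Slc25a26 and Slc25a51 in splenic C26 and Slc25a22, Slc25a24 and Slc25a26 in subcutaneous C26. Of all genes called in splenic C26, 54.0% were higher with the scaling used here and 38.5% with upper-quartile scaling, and in subcutaneous C26 53.9% and 34.9%. Without the 3 libraries with the most Ucp1 (sham replicates 2 and 3 and control replicate 1, at 84.8 CPM or more), the splenic C26 comparison held 6 members higher and 6 lower, with 2 sham libraries left. The calls lost were those of Slc25a1, Slc25a12, Slc25a13, Slc25a22, Slc25a23, Slc25a25, Slc25a30, Slc25a33, Slc25a39, Slc25a40 and Slc25a44, and in subcutaneous C26 those of Slc25a23, Slc25a25, Slc25a29 and Slc25a44. Without splenic C26 replicate 1 and subcutaneous C26 replicate 3 together, the splenic C26 comparison held 15 higher and 13 lower. This removal and that of the 3 libraries with the most Ucp1 were chosen after seeing the data. A further set of 4 libraries (splenic C26 replicates 1 and 3, control replicate 1 and subcutaneous C26 replicate 4) was set aside together for transcripts of other tissues (Ngp, Mki67 or, outside control, Alb). Without them, the calls of Slc25a1, Slc25a20, Slc25a23, Slc25a25 and Slc25a39 were lost in splenic C26 and those of Slc25a1, Slc25a4, Slc25a16 and Slc25a23 in subcutaneous C26. Control replicates 2, 3 and 4 were kept, with Alb at 67.7, 24.6 and 127 CPM beside 76.2 in splenic C26 replicate 1. The remaining libraries were therefore not free of liver transcripts.

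Of the 42 members, 19 passed in the same direction in both comparisons, which share no library. These were 8 members that rose (Slc25a25, Slc25a28, Slc25a30, Slc25a33, Slc25a34, Slc25a38, Slc25a44 and Ucp2) and 11 that fell (among them Slc25a1, Slc25a10, Slc25a11, Slc25a12, Slc25a13, Slc25a15, Slc25a23, Slc25a35, Slc25a39 and Slc25a40). Of all genes, 38.6% passed in the same direction in both, 22.1% as higher and 16.5% as lower, beside 45.2%, 19.0% and 26.2% of members. No member passed in opposite directions, and 0.323% of all genes did. Another 3 passed as higher in splenic C26 alone (Slc25a20, Slc25a22 and Ucp3), 1 as lower there alone (Slc25a24), and 4 as lower in subcutaneous C26 alone (Slc25a4, Slc25a16, Slc25a29 and Slc25a47). Of all genes, 28.1% were higher in splenic C26 and 22.1% in both. Lower were 23.9% in splenic C26, 23.1% in subcutaneous C26 and 16.5% in both. Passing in 1 comparison alone does not show a difference between them, and that test passed for 0 of 42 members. For 15 members neither comparison passed.

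**Figure D1:**
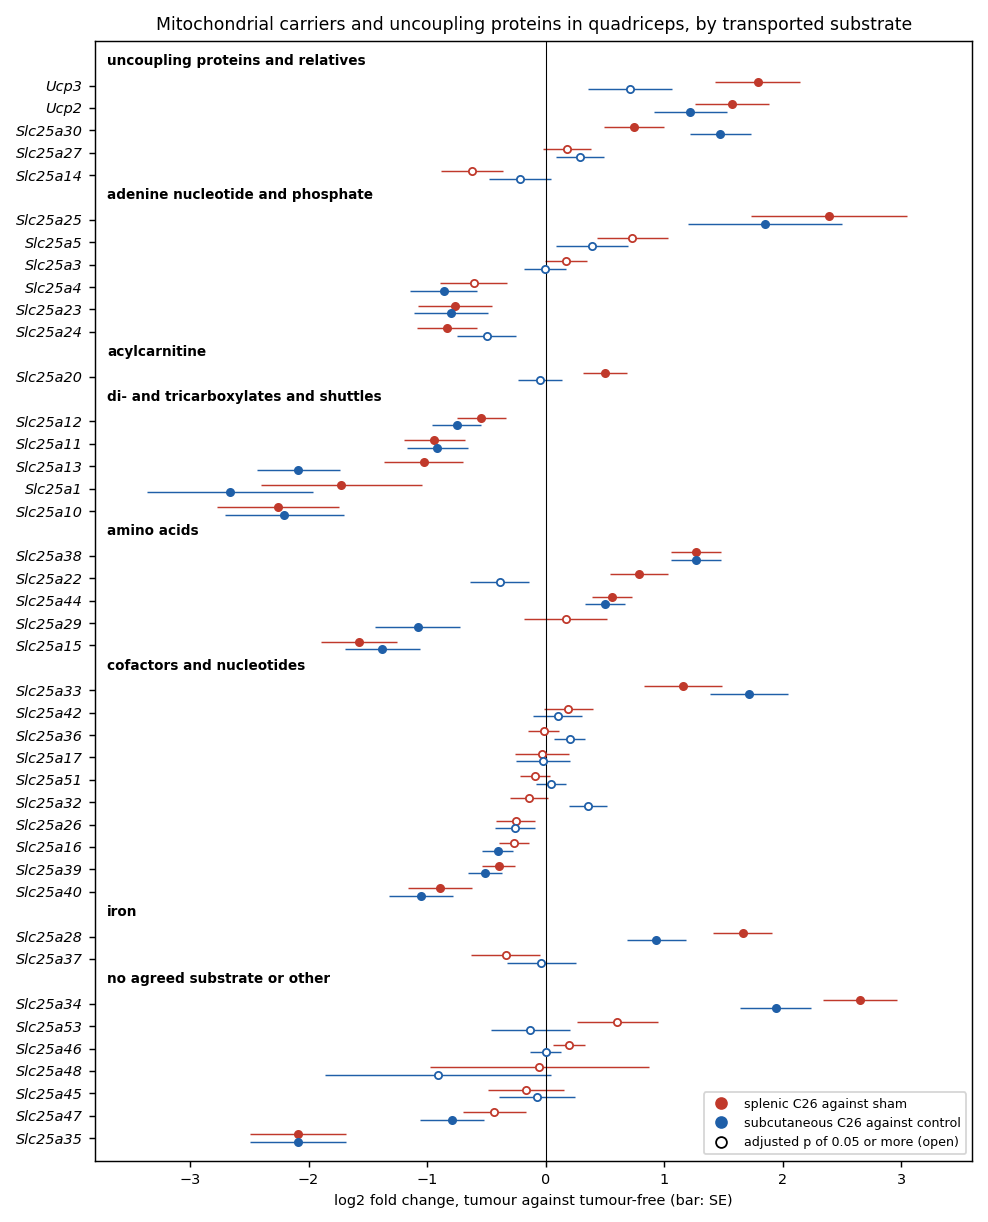
Log2 fold changes of members, grouped by what they carry, in splenic C26 against sham (red) and subcutaneous C26 against control (blue). Bars are the SE derived from the F statistic of edgeR's test, and open circles did not pass. The 5 carriers of di- and tricarboxylates and shuttles lie to the left of 0 in both comparisons, while Slc25a34, Ucp2 and Slc25a38 lie to the right in both.

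Among tumour-free muscle transcripts of the family, one carrier stood far above the others. Per kilobase of exon, taken as the union of GENCODE exons, Slc25a4 averaged 1264 ± 130.3 CPM (SD, n = 8 sham and control libraries). It encodes the muscle and heart ADP/ATP carrier, also called ANT1. Next came Slc25a11, the 2-oxoglutarate/malate carrier, at 136 ± 12.1, and Slc25a3, the phosphate carrier, at 112 ± 12.7. Slc25a12, the aspartate/glutamate carrier also called aralar, followed at 67.3 ± 6.53, and Ucp3 at 64.7 ± 20.6. The ranges of Slc25a11 and Slc25a3 overlapped, although by this length Slc25a11 was the higher one in each of the 8 libraries. Those of Slc25a12 and Ucp3 also overlapped, and which of them was higher varied between libraries. The remaining members lay at 22.3 CPM per kilobase or below, headed by Slc25a1 with 22.3 ± 21.2 and Slc25a5 with 21.6 ± 5.57.

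The order depends in part on the gene length. The second deposited table holds log2 RPKM, from which the length the authors used for each gene can be recovered. Per kilobase of that length the same 5 genes led, but Slc25a3 came second at 410.9 ± 46.7 CPM, followed by Slc25a12 at 169 ± 16.4 and Slc25a11 at 155 ± 13.8, with Slc25a4 at 2689 ± 277 and Ucp3 at 82.9 ± 26.4. By exon union, Slc25a4 made up 67.8% ± 2.31 (SD, n = 4) of the summed level of all members in sham, 51.8% ± 7.85 in splenic C26, 67.5% ± 2.55 in control and 52.2% ± 9.37 in subcutaneous C26. By the recovered lengths the shares were 69.6%, 54.6%, 69.4% and 54.1%. Shares of splenic C26 libraries, 44.0% to 60.5%, did not reach those of sham, 64.4% to 69.4%. Subcutaneous C26 libraries reached from 46.2% to 66.2% and overlapped the control range of 63.7% to 69.2%.

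**Figure D2:**
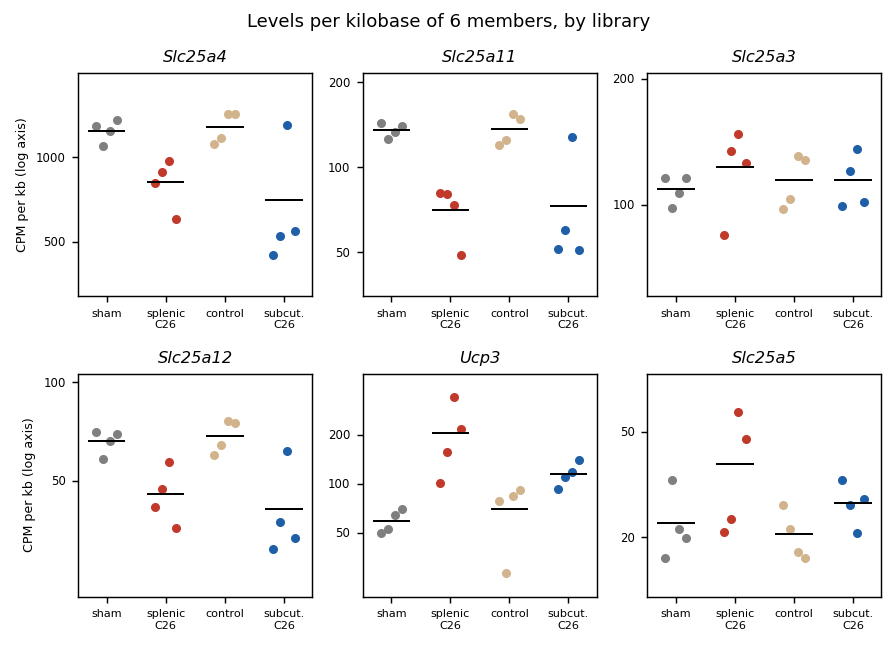
Levels of 6 members in CPM per kilobase of exon union, on a log axis with a separate range in each panel. Each point is 1 of 4 libraries of a group in the order of the replicate numbers, and the black line is the group mean. Slc25a4 and Slc25a11 in subcutaneous C26 show 1 point, replicate 3, beside the tumour-free libraries, and 3 points below.

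The ADP/ATP carrier Slc25a4 (chr8:46206797-46211284, minus strand; mm10 here and below) fell in subcutaneous C26. Control libraries held 2617, 2765, 3349 and 3346 CPM, and subcutaneous C26 libraries held 1056, 1235, 3079 and 1284. Replicate 3 lay within the control range and the other 3 libraries lay below it. The log2 fold change was -0.86 ± 0.28 (SE, adjusted p = 0.0204). In splenic C26 against sham, sham libraries held 3031, 2576, 2927 and 3184 CPM and splenic C26 libraries 1909.7, 2086, 2279 and 1425. Every splenic C26 library was below every sham library, yet the change missed the threshold at -0.61 ± 0.28 (SE, adjusted p = 0.0819). When the spread was estimated from the 8 compared libraries only, the calls changed places: splenic C26 passed at -0.60 with an adjusted p of 0.0247 and subcutaneous C26 did not, at -0.86 with 0.0581. Without splenic C26 replicate 1 and subcutaneous C26 replicate 3 both passed, at -0.60 (adjusted p = 0.00603) and -1.34 (adjusted p = 1.27e-05). That removal was chosen after seeing the data, and subcutaneous C26 replicate 3 was the library within the control range. Leaving it out therefore enlarged the fall, and these values are no independent test.

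Slc25a5 (chrX:36795651-36798807, plus strand) encodes ANT2, the ADP/ATP carrier of many dividing and non-muscle cells. No 75-base sequence is shared by the transcripts of Slc25a4 and Slc25a5, or by any of the 861 pairs of members. Sham libraries held 27.5, 53.9, 35.3 and 32.6 CPM and splenic C26 libraries 34.5, 38.7, 97.7 and 77.6, with replicates 3 and 4 above the sham range. At 0.73 ± 0.30 (SE, adjusted p = 0.0541) it did not pass. It passed when sham replicate 2 (0.98, adjusted p = 0.0234), splenic C26 replicate 1 (0.94, 0.0123) or splenic C26 replicate 2 (0.90, 0.0261) was left out. With all libraries it also passed with DESeq2 (0.76, adjusted p = 0.0322) and in edgeR with RLE scaling (0.76, 0.0491). Control and subcutaneous C26 libraries, with 44, 35.3, 28.8 and 27.4 CPM and 53.9, 43.5, 34.2 and 45.7 CPM, overlapped, and the value was 0.39 ± 0.30 (SE, adjusted p = 0.293).

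Slc25a3 (chr10:91116574-91124059, minus strand), which brings phosphate into the matrix for ATP synthesis, showed no change that passed. Its levels were 643, 544, 593 and 643 CPM in sham, 469, 746, 817 and 698 in splenic C26, 541, 573, 726 and 708 in control and 552, 669, 755 and 562 in subcutaneous C26. The groups overlapped in both comparisons, with log2 fold changes of 0.17 ± 0.18 (SE, adjusted p = 0.428) and -0.00 ± 0.18 (SE, adjusted p = 0.984). Without splenic C26 replicate 1, the lowest of its group, and subcutaneous C26 replicate 3, the splenic C26 value was 0.32 (adjusted p = 0.0447). That removal was chosen after seeing the data.

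Slc25a23, Slc25a24 and Slc25a25 are the calcium-regulated carriers that exchange ATP-Mg for phosphate, and they did not move together. Slc25a25 (chr2:32414487-32451445, minus strand) rose. Sham libraries held 84.6, 65.1, 65.3 and 128 CPM and splenic C26 libraries 245, 60.1, 1261 and 228, where replicate 3 stood far above the other 3 and replicate 2 lay below every sham library. The log2 fold change was 2.39 ± 0.66 (SE, adjusted p = 0.00798). Without splenic C26 replicate 3 it was 1.05 and did not pass (adjusted p = 0.0588), so 1 library moved the value by more than 2-fold. Without the 4 libraries set aside for transcripts of other tissues, among them that one, it was 0.76 (0.179). In the other comparison, control libraries held 11.7, 36.7, 20.1 and 18.8 CPM and subcutaneous C26 libraries 81.0, 96.2, 62.1 and 75.4, all of them higher. That log2 fold change was 1.85 ± 0.65 (SE, adjusted p = 0.0279), and it missed the threshold without control replicate 1 (1.63, adjusted p = 0.0770), control replicate 3 (1.81, 0.0610), control replicate 4 (1.78, 0.0625) or subcutaneous C26 replicate 2 (1.70, 0.0671).

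Slc25a25 also varied between the tumour-free groups, without passing the test. Every sham library was above every control library, and the log2 fold change of sham against control was 1.97 ± 0.65 (SE, adjusted p = 1). The value in subcutaneous C26, 78.7 ± 14.1 CPM (SD, n = 4), was close to the sham mean of 85.7 ± 29.6. Some exon bases of Slc25a25, 379, also lie in Naif1 on the opposite strand, and the counting is not stated to use strand.

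Slc25a23 fell in both comparisons, with log2 fold changes of -0.77 ± 0.31 (SE, adjusted p = 0.0493) and -0.80 ± 0.31 (SE, adjusted p = 0.0432). Sham libraries held 20.4, 44.6, 27.6 and 21.1 CPM and splenic C26 libraries 21.5, 13.1, 8.13 and 23.9, with overlap, while control libraries held 33.2, 29.4, 24.2 and 24.6 and subcutaneous C26 libraries 18.7, 13.3, 19.8 and 12.3, all lower. Both calls were close to the threshold. The splenic one missed it without sham replicate 2 (-0.45, adjusted p = 0.218), sham replicate 3 (-0.78, 0.0764), splenic C26 replicate 2 (-0.67, 0.118) or splenic C26 replicate 3 (-0.54, 0.128). The subcutaneous one missed it in each omission except those of subcutaneous C26 replicates 1 and 3, with values from -0.86 (adjusted p = 0.0534) to -0.72 (adjusted p = 0.10). Slc25a24 fell in splenic C26, 5.54 to 7.65 CPM in sham against 2.63 to 5.55, with -0.83 ± 0.25 (SE, adjusted p = 0.0128). In subcutaneous C26 it did not pass at -0.50 ± 0.25 (SE, adjusted p = 0.108).

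Partner genes of ADP/ATP exchange (porins, creatine kinases, adenylate kinases and others, 11 measured of 13 listed) gave 1 higher and 4 lower in splenic C26 and 0 higher and 3 lower in subcutaneous C26. For this and the later partner lists, 28.1% of all genes were higher and 23.9% lower in splenic C26. In subcutaneous C26 27.0% of all genes were higher and 23.1% lower. No list was tested as a set. The smallest p-values in splenic C26 belonged to the adenylate kinases Ak4 (-1.62 ± 0.38, adjusted p = 0.00310) and Ak3 (-0.63 ± 0.19, 0.0121). In subcutaneous C26 they belonged to Ppif, cyclophilin D of the permeability transition pore (-1.17 ± 0.26, 0.00214), and Ckmt2, the mitochondrial creatine kinase of muscle (-2.10 ± 0.46, 0.00221). Of 8 measured genes of mitochondrial calcium handling, 1 fell in splenic C26, the regulator Micu3 of the calcium uniporter (-0.68 ± 0.11, 0.000340). In subcutaneous C26 2 fell, Micu3 (-0.48 ± 0.11, 0.00308) and Letm1 (-0.37 ± 0.13, 0.0289), which is not a part of the uniporter.

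All 5 carriers of di- and tricarboxylates and of the malate-aspartate shuttle fell in both comparisons, where 16.5% of all genes did. The splenic calls of Slc25a1, Slc25a12 and Slc25a13 were lost in some alternatives. Slc25a11 (chr11:70644196-70647479, minus strand) and Slc25a12 (chr2:71271063-71367749, minus strand) are the main carriers of that shuttle in muscle. Slc25a13 (chr6:6041218-6217173, minus strand), also called citrin, is the close relative of Slc25a12 that prevails in liver. Slc25a1 (chr16:17925223-17928219, minus strand) exports citrate to the cytosol, and Slc25a10 (chr11:120491840-120499187, plus strand) exchanges malate or succinate for phosphate.

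Slc25a11 stood at 305, 266, 283 and 296 CPM in sham and 171, 170.0, 155 and 103 in splenic C26. The groups did not overlap, and the log2 fold change was -0.94 ± 0.26 (SE, adjusted p = 0.00757). In control it stood at 254, 264, 326 and 314 CPM and in subcutaneous C26 at 109, 127, 272 and 107. Here replicate 3 lay within the control range and the other 3 libraries were more than 2-fold below the control mean, for -0.91 ± 0.26 (SE, adjusted p = 0.00916). Both calls held in every alternative that was run.

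For Slc25a12, sham libraries held 516, 426, 486 and 510.1 CPM and splenic C26 libraries 305, 347, 417 and 263. All 4 were lower than sham, with -0.54 ± 0.21 (SE, adjusted p = 0.0375). Control libraries held 439, 470.1, 558 and 549 CPM and subcutaneous C26 libraries 227, 273, 453 and 245, of which replicate 3 overlapped the control range. That log2 fold change was -0.75 ± 0.21 (SE, adjusted p = 0.0078) and held in every alternative. The splenic call was lost without sham replicate 1, 3 or 4 or splenic C26 replicate 1, 2 or 4, at log2 fold changes of -0.56 to -0.44 and adjusted p-values of 0.0551 to 0.0992.

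Slc25a13 was 1 of the rarer members, with 7 to 63 counts per library. Sham libraries held 1.4, 1.07, 1.21 and 1.30 CPM and splenic C26 libraries 0.957, 0.325, 0.752 and 0.388, all lower, with -1.03 ± 0.33 (SE, adjusted p = 0.0181). It was no longer called without splenic C26 replicate 2 (-0.82, adjusted p = 0.0517) or replicate 4 (-0.86, 0.0570). Control libraries held 1.15, 1.86, 1.27 and 1.49 CPM and subcutaneous C26 libraries 0.223, 0.381, 0.456 and 0.296, all lower, with -2.09 ± 0.35 (SE, adjusted p = 0.000382). Liver transcripts moved with both comparisons, in opposite directions. In subcutaneous C26 9 of 10 hepatocyte markers passed as lower and 1 as higher, and in splenic C26 7 passed as higher and 0 as lower. Their part in the values of Slc25a13 was not tested. Their sum was 16.3 to 222 CPM in sham, 82.3 to 317 in splenic C26, 91.5 to 322 in control and 141 to 274 in subcutaneous C26, with none at 0 in a group. Alb, which encodes albumin, stood at 16.5, 67.7, 24.6 and 127 CPM in control and 0.637, 0.889, 0.663 and 0.370 in subcutaneous C26, and at 76.2, 0.0722, 0.611 and 0.0388 in splenic C26. In sham, where Alb stood at 0.239, 2.25, 0.375 and 0.240 CPM, Slc25a13 overlapped its control range.

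Slc25a1 and Slc25a10 had the largest falls of the 5. Slc25a1 stood at 7.04, 66.5, 25.7 and 21.1 CPM in sham and 7.56, 5.53, 6.2 and 17.1 in splenic C26, where sham replicate 1 was as low as the tumour libraries. The value was -1.72 ± 0.68 (SE, adjusted p = 0.0447). Control libraries held 145, 75.6, 28.7 and 16.7 CPM and subcutaneous C26 libraries 14.1, 8.03, 13.0 and 6.81, all lower, for -2.66 ± 0.70 (SE, adjusted p = 0.00623). Slc25a10 stood at 5.94, 24.7, 7.02 and 11.0 CPM in sham and 3.22, 2.24, 2.12 and 2.56 in splenic C26, without overlap, for -2.26 ± 0.51 (SE, adjusted p = 0.00251). In control it stood at 29.0, 27.0, 10.5 and 8.98 CPM and in subcutaneous C26 at 5.67, 3.05, 5.72 and 1.93, also without overlap, for -2.21 ± 0.50 (SE, adjusted p = 0.00272).

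Within sham both carriers were highest in replicate 2, and within control in replicate 1, the libraries of each group with the most Ucp1. Control replicate 2, with less Ucp1, was above sham replicate 2 in both carriers. Ucp1, the gene that defines brown fat, stood at 1.57, 297, 84.8 and 15.9 CPM in sham, 0.415, 2.17, 1.46 and 0.815 in splenic C26, 199.8, 28.7, 33.9 and 13.5 in control and 1.5, 0.508, 2.57 and 0.889 in subcutaneous C26. The summed level of all 9 adipocyte markers was 218 to 2394 CPM in sham, 557 to 1276 in splenic C26, 447 to 1842 in control and 866 to 1558 in subcutaneous C26, with no marker at 0 in any group. So the sum of fat markers overlapped between groups while Ucp1 did not in the subcutaneous comparison. Without the 3 libraries with the most Ucp1, Slc25a1 was -0.61 in splenic C26 (adjusted p = 0.460) and -1.95 in subcutaneous C26 (0.0187), and Slc25a10 was -1.72 (0.0251) and -1.93 (0.00770). Sham replicate 2 alone decided much of the splenic value of Slc25a1, which was -0.96 without it (adjusted p = 0.228), and of Slc25a10, which was -1.63 (0.010). Slc25a1 also missed the threshold in splenic C26 without sham replicate 3 or 4 or splenic C26 replicate 1, 2 or 3, at -1.86 to -1.55 with adjusted p-values of 0.0506 to 0.104. In subcutaneous C26 it was -1.97 (0.0254) without control replicate 1, and -1.82 (0.0729) without the 4 libraries set aside for transcripts of other tissues.

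**Figure D3:**
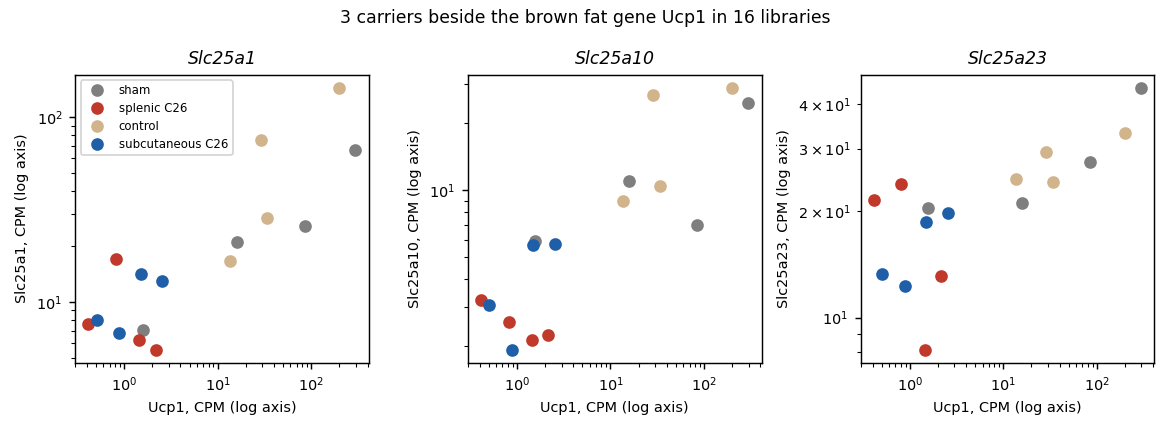
Levels of Slc25a1, Slc25a10 and Slc25a23 against Ucp1 in all 16 libraries, in CPM on log axes, with 1 point per library coloured by group. The tumour libraries lie at the left, at Ucp1 of 2.57 CPM or below, and the libraries with the highest Ucp1, sham replicate 2 and control replicate 1, are among the highest in each panel; no correlation was tested.

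**Figure D4:**
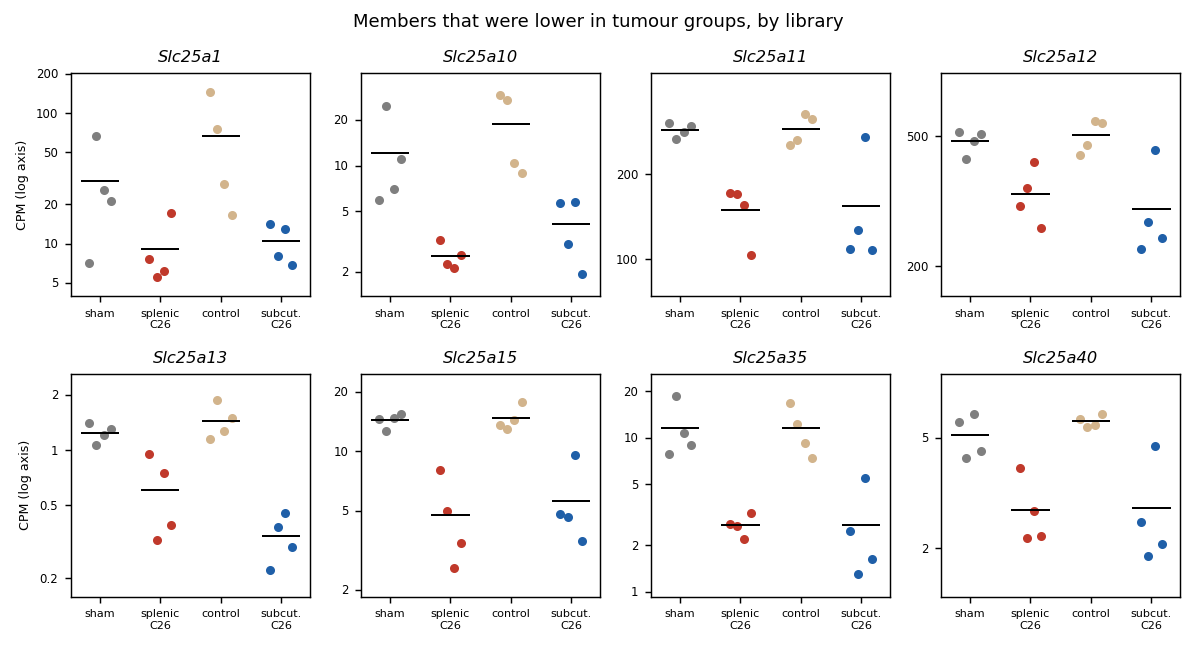
Levels of 8 members that were lower in tumour groups, in CPM on log axes with a separate range in each panel. Points are the 4 libraries of a group in the order of the replicate numbers and the black line is the group mean. In Slc25a10, Slc25a13, Slc25a15, Slc25a35 and Slc25a40 no tumour library reaches its tumour-free group.

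The enzymes beside these carriers gave 0 higher and 3 lower of 6 malate-aspartate and glycerol phosphate shuttle genes in splenic C26, and 0 higher and 4 lower in subcutaneous C26. Gpd1, the cytosolic glycerol 3-phosphate dehydrogenase, fell by 2.06 ± 0.41 (adjusted p = 0.00106) and by 1.83 ± 0.40 (0.00221). Gpd2, its mitochondrial counterpart, fell by 1.01 ± 0.27 (0.00657) in splenic C26, and Mdh1, cytosolic malate dehydrogenase, fell by 1.11 ± 0.25 (0.00247) in subcutaneous C26. Of 16 partner enzymes of citrate export and of cofactors, 8 rose and 2 fell in splenic C26 and 6 rose and 3 fell in subcutaneous C26. Those with the smallest p-values were the glutathione enzymes Gsr, glutathione reductase (1.58 ± 0.21, adjusted p = 0.000104, and 1.39 ± 0.21, 0.000210), and Gclm, a subunit of glutamate-cysteine ligase (1.76 ± 0.26, 0.000165, and 1.51 ± 0.25, 0.000388). Cs, citrate synthase, and Acly, which splits exported citrate, were the 2 that fell in splenic C26, and both also fell in subcutaneous C26.

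Ucp3 and Ucp2 lie next to each other on chromosome 7, with 6904 bases between the end of Ucp3 (chr7:100472990-100486432, plus strand) and the start of Ucp2 (chr7:100493337-100502020, plus strand). Both rose in splenic C26. Ucp3 stood at 155, 165, 202 and 219.7 CPM in sham and 318, 493, 1069 and 681 in splenic C26. Every tumour library was higher, and the log2 fold change was 1.79 ± 0.36 (SE, adjusted p = 0.00119), a call that held in every alternative. In control it stood at 245, 88.5, 262 and 286 CPM and in subcutaneous C26 at 289, 345, 369.8 and 441. Again every tumour library was higher, although 3 of 4 control libraries were close below, and the value of 0.71 ± 0.35 (SE, adjusted p = 0.103) did not pass there or in any alternative. The difference between the tumour effects was 1.08 ± 0.50 (adjusted p = 0.771), so the effects are not shown to differ.

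The 250 bases before the RefSeq start of Ucp3 on GRCm38.p6 (chr7:100472741-100472990, plus strand) are shown as an example. The size of the change alone did not select Ucp3. Slc25a25 rose more in splenic C26, with a log2 fold change of 2.39. Its 3 windows hold none of the 8 motifs and are not printed. Of 8 motifs searched on both strands, the Ucp3 window holds 1, the STAT element TTCNNNGAA, in capitals.
Ucp3: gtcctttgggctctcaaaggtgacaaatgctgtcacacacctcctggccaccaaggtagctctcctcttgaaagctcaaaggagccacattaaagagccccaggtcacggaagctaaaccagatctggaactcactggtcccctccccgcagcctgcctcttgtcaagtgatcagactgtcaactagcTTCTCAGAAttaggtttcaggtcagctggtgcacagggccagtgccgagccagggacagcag

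A STAT element of these letters occurs in 7.02% of all 32851 RefSeq windows of this length and in 2 of the 42 member windows, those of Ucp3 and Slc25a36. Windows were found for 33 of the 42 members. The E-box CACGTG occurs in 6.02% of all windows and in 7 of the member windows, which belong to Slc25a1, Slc25a13, Slc25a14, Slc25a15, Slc25a33 and Slc25a36. Overlapping windows of Slc25a14 hold the same E-box, which is counted once for each window. The median GC content was 57.8% in member windows and 52.4% in all windows, and no motif share was tested. The other motifs were TGTTTAC of FoxO factors (3.17% of all windows and 0 member windows), AGAACA of the glucocorticoid receptor (16.1% and 2), CAAGGTCA of estrogen-related receptors (1.33% and 0), TGATGNAA of ATF4 (3.45% and 0), the NRF-1 motif (3.74% and 1) and the direct-repeat element of PPAR (0.0335% and 0). A match of letters is a description and not a binding site.

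Ucp2 rose in both comparisons. Its levels were 22.8, 37.5, 20.9 and 25.5 CPM in sham and 62.0, 58.6, 91.9 and 104 in splenic C26, all higher, with 1.57 ± 0.31 (SE, adjusted p = 0.00106). Control libraries held 41.2, 32.2, 26 and 17.8 CPM and subcutaneous C26 libraries 86.9, 53.6, 40.0 and 92.4. Replicate 3 of the tumour group overlapped the control range, and the log2 fold change was 1.22 ± 0.31 (SE, adjusted p = 0.00489). Immune transcripts were measured beside it. All 10 neutrophil markers together stood at 2.36 to 2.91 CPM in sham, where Camp, Ltf and Mpo were at 0, at 21.8 to 2490.0 in splenic C26, at 2.25 to 51.2 in control and at 24.6 to 445 in subcutaneous C26. Of these markers, 9 passed as higher in splenic C26 and 1 did not pass. In subcutaneous C26 only Lcn2 passed, as higher, and 9 did not pass. The 10 macrophage and monocyte markers summed to 236 to 313 CPM in sham, 159 to 359 in splenic C26, 142 to 299 in control and 148 to 398 in subcutaneous C26. Their part in the Ucp2 values was not tested. Exons of Ucp2 share 305 bases with Dnajb13 on the opposite strand.

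The relatives of the uncoupling proteins gave 1 member that passed. Slc25a30 (chr14:75760117-75787037, minus strand) held 5.30, 3.23, 4.39 and 3.50 CPM in sham and 5.46, 7.26, 5.26 and 9.51 in splenic C26, with overlap, and 2.74, 3.58, 3.85 and 3.32 in control and 11.3, 11.0, 5.47 and 9.63 in subcutaneous C26, without. It rose by 0.74 ± 0.25 (SE, adjusted p = 0.0221) and 1.47 ± 0.25 (SE, adjusted p = 0.000448). The first missed the threshold without sham replicate 2 (0.66, adjusted p = 0.0659), sham replicate 4 (0.68, 0.0605) or splenic C26 replicate 4 (0.55, 0.0908), and the second held in every alternative. Slc25a14 did not pass at -0.62 ± 0.26 (SE, adjusted p = 0.0579) and -0.22 ± 0.26 (SE, adjusted p = 0.503), although every splenic C26 library was below every sham library and DESeq2 gave -0.60 (adjusted p = 0.0445) in splenic C26. Neither did Slc25a27 at 0.18 ± 0.20 (SE, adjusted p = 0.47) and 0.29 ± 0.20 (SE, adjusted p = 0.238).

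Genes known to answer to fatty acids together with Ucp3 were listed as partners. Of 14 genes, 8 rose and 3 fell in splenic C26 and 6 rose and 3 fell in subcutaneous C26. Acot1 and Acot2, which release free fatty acids from coenzyme A, had the smallest p-values: 5.30 ± 0.49 (adjusted p = 1.17e-05) and 3.28 ± 0.30 (1.03e-05) in splenic C26, and 3.61 ± 0.47 (9.67e-05) and 2.48 ± 0.29 (5.29e-05) in subcutaneous C26. They are close copies of each other, so reads may have been split between them. Pdk4, Ppard, Cpt1b and Cd36 rose in both comparisons, and Esrra, Ppargc1b and Acot13 fell in both. The list was written with earlier results of these data known.

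Slc25a20 (chr9:108662088-108684641, plus strand) carries acylcarnitines inward in exchange for carnitine, the step between both carnitine palmitoyltransferases. Sham libraries held 57.2, 92.4, 72.1 and 63.3 CPM and splenic C26 libraries 83.0, 103, 121 and 95.8, which overlapped. It rose by 0.50 ± 0.19 (SE, adjusted p = 0.034). The call was lost without sham replicate 1, 3 or 4 or splenic C26 replicate 2 or 3, at log2 fold changes of 0.40 to 0.51 and adjusted p-values of 0.0619 to 0.105, and with upper-quartile scaling (0.28, 0.205). Control and subcutaneous C26 libraries overlapped with 84.2, 57.8, 78.7 and 59.1 CPM and 58.6, 68.4, 86.2 and 58.1 CPM, for -0.05 ± 0.18 (SE, adjusted p = 0.854). The enzymes of the carnitine shuttle and carnitine uptake gave 3 of 7 higher in splenic C26 and 1 of 7 in subcutaneous C26, and 0 fell. Cpt1b, the muscle carnitine palmitoyltransferase of the outer membrane, rose by 0.60 ± 0.16 (adjusted p = 0.00604) and 0.48 ± 0.16 (0.0205). Cpt2, its partner on the inner membrane, rose by 0.52 ± 0.18 (0.0219) in splenic C26, and Slc22a5, the carnitine importer, did not pass in subcutaneous C26 at -0.35 ± 0.17 (0.10).

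The smallest adjusted p in each tumour comparison among the members belonged to Slc25a34 (chr4:141618824-141623821, minus strand), a carrier without an agreed substrate. It stood at 20.7, 19.9, 15.0 and 19.2 CPM in sham and 50.2, 132, 163 and 125 in splenic C26. In control it stood at 22.3, 14.1, 27.5 and 14.3 CPM and in subcutaneous C26 at 78.1, 90.7, 58.6 and 72.6. The groups did not overlap in either comparison, and splenic C26 replicate 1 was the lowest tumour library. The log2 fold changes were 2.65 ± 0.31 (SE, adjusted p = 5.17e-05) and 1.94 ± 0.30 (SE, adjusted p = 0.000255), and both calls held in every alternative. The promoter window of Slc25a34 (chr4:141623835-141624084, minus strand, GRCm38.p6), shown beside that of Ucp3 because it rose most in splenic C26, holds none of the 8 motifs.
Slc25a34: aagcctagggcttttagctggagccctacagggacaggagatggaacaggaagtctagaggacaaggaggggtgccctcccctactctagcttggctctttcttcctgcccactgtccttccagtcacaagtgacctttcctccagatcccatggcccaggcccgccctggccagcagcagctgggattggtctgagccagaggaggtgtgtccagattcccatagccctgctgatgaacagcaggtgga

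Its close relative Slc25a35 (chr11:68968131-68974365, plus strand) went the other way. Sham libraries held 7.86, 18.7, 10.7 and 8.98 CPM and splenic C26 libraries 2.74, 2.67, 2.21 and 3.22, and control libraries held 16.9, 12.3, 9.30 and 7.42 CPM and subcutaneous C26 libraries 2.48, 1.30, 5.47 and 1.63. Groups did not overlap in either comparison. Slc25a35 fell, with log2 fold changes of -2.09 ± 0.41 (SE, adjusted p = 0.000988) and -2.09 ± 0.41 (SE, adjusted p = 0.00102), and both calls held in every alternative. Like Slc25a1, it was highest in sham replicate 2 and control replicate 1, and without the 3 libraries with the most Ucp1 it was -1.61 (adjusted p = 0.0215) and -1.85 (0.00617). Of its 3677 exon bases, 1151 lie in Rangrf on the opposite strand. The level of Rangrf was 19.1 to 24.1 CPM in sham and 16.9 to 20.7 in splenic C26. In control Rangrf stood at 19.6 to 26.2 CPM and in subcutaneous C26 at 15.2 to 23.2.

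**Figure D5:**
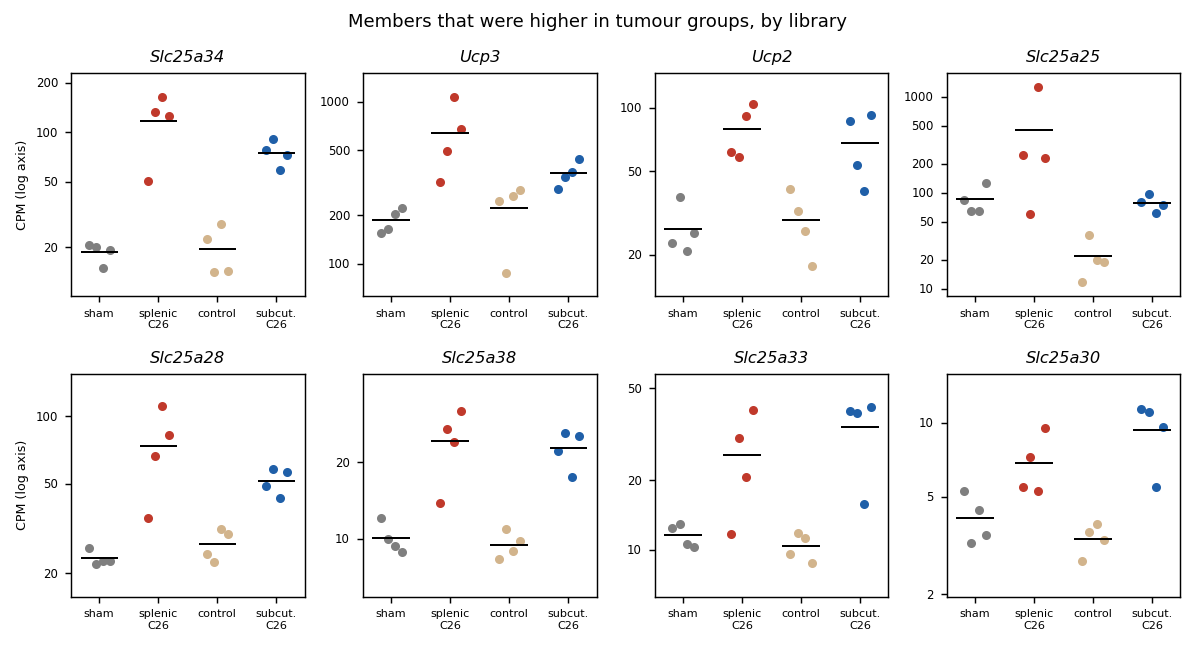
Levels of 8 members that were higher in tumour groups, in CPM on log axes with a separate range in each panel. Points are the 4 libraries of a group in the order of the replicate numbers and the black line is the group mean. Slc25a34, Slc25a28 and Slc25a38 show no overlap in either comparison, and 1 splenic C26 library of Slc25a25 stands at 1261 CPM.

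Among the other members with no agreed substrate or another role, Slc25a47, best known from liver, fell in subcutaneous C26 at -0.79 ± 0.27 (SE, adjusted p = 0.0231), from 1.15 to 2.43 CPM to 0.921 to 1.37. It missed the threshold without control replicate 2 (-0.69, adjusted p = 0.0646), control replicate 4 (-0.70, 0.0610), subcutaneous C26 replicate 1 (-0.73, 0.0554) or subcutaneous C26 replicate 2 (-0.73, 0.0601). In sham, with Alb at 2.25 CPM or below, it stood at 1.47 to 2.07 CPM. The other 4 passed in neither comparison. Their log2 fold changes in splenic C26 and subcutaneous C26 were -0.17 and -0.07 for Slc25a45, 0.20 and -0.00 for Slc25a46 of the outer membrane, -0.05 and -0.91 for Slc25a48, and 0.60 and -0.13 for Slc25a53. In splenic C26, Slc25a46 and Slc25a53 passed without replicate 1 (0.34, adjusted p = 0.0111, and 0.88, 0.0112).

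The carriers of amino acids split. Slc25a38 (chr9:120110374-120124504, plus strand), which brings glycine into mitochondria for haem synthesis, rose in both comparisons by almost the same amount. It stood at 12.0, 9.93, 9.37 and 8.85 CPM in sham, 13.9, 27.1, 23.9 and 31.9 in splenic C26, 8.27, 10.9, 8.94 and 9.79 in control and 22.2, 26.1, 17.4 and 25.4 in subcutaneous C26. Neither comparison had an overlap, and the log2 fold changes were 1.27 ± 0.21 (SE, adjusted p = 0.000352) and 1.27 ± 0.21 (SE, adjusted p = 0.000363). The difference between them was 0.00 ± 0.30. Both calls held in every alternative.

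Slc25a15 (chr8:22375551-22398597, minus strand), the ornithine carrier, fell in both. Levels were 14.6, 12.6, 14.7 and 15.3 CPM in sham, 8.04, 5.02, 2.59 and 3.46 in splenic C26, 13.5, 13.0, 14.5 and 17.6 in control and 4.84, 4.67, 9.53 and 3.52 in subcutaneous C26. All tumour libraries were below their tumour-free group, and the libraries nearest to it were splenic C26 replicate 1 and subcutaneous C26 replicate 3. The log2 fold changes were -1.57 ± 0.32 (SE, adjusted p = 0.0012) and -1.38 ± 0.32 (SE, adjusted p = 0.00271), and both calls held in every alternative.

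Slc25a29 (chr12:108825873-108835883, minus strand), a carrier of basic amino acids, stood at 5.92, 8.94, 5.56 and 5.22 CPM in control and 2.48, 2.1, 4.10 and 3.44 in subcutaneous C26. All 4 tumour libraries were lower, with -1.08 ± 0.36 (SE, adjusted p = 0.0206). It missed the threshold without control replicate 2 (-0.90, adjusted p = 0.0617) or subcutaneous C26 replicate 2 (-0.98, 0.0586). Sham libraries held 6.29, 6.64, 5.92 and 5.76 CPM and splenic C26 libraries 4.72, 3.50, 14.1 and 5.51, where replicate 3 was the highest of all 16 libraries, and the value was 0.17 ± 0.35 (SE, adjusted p = 0.699). Slc25a22, a glutamate carrier, rose in splenic C26 from 17.8 to 27.8 CPM to 27.3 to 57.7, with 0.79 ± 0.25 (SE, adjusted p = 0.0157). Without splenic C26 replicate 3 that value was 0.55 and did not pass (0.0693). In subcutaneous C26 Slc25a22 did not pass at -0.39 ± 0.25 (SE, adjusted p = 0.203).

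Slc25a44, the carrier of branched-chain amino acids, rose in both comparisons, from a range of 42.2 to 50.3 to one of 45.8 to 85.0 CPM in splenic C26 and from a range of 45.3 to 49.3 to one of 55.0 to 78.6 in subcutaneous C26. The log2 fold changes were 0.56 ± 0.17 (SE, adjusted p = 0.0122) and 0.50 ± 0.17 (SE, adjusted p = 0.023). The splenic call was lost without splenic C26 replicate 4 (0.45, adjusted p = 0.0532), and the subcutaneous one without control replicate 2 (0.48, 0.0633), subcutaneous C26 replicate 2 (0.42, 0.0915) or replicate 4 (0.38, 0.106). Upper-quartile scaling left 0.33 (0.0604) and 0.26 (0.141). Of 15 measured partner enzymes of one-carbon and amino acid metabolism, 4 rose and 5 fell in splenic C26 and 4 rose and 3 fell in subcutaneous C26. Oat, ornithine aminotransferase, rose by 1.1 ± 0.16 (adjusted p = 0.000140) and 0.80 ± 0.15 (0.000913), while the ornithine carrier fell. Gldc, the glycine decarboxylase, rose by 3.07 ± 0.51 (0.000350) in splenic C26, and Bcat2, the mitochondrial branched-chain aminotransferase, by 0.76 ± 0.16 (0.00192) in subcutaneous C26.

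Carriers of cofactors and nucleotides changed in both directions. Slc25a33 (chr4:149744036-149774277, minus strand), a pyrimidine nucleotide carrier, rose in both comparisons. Sham libraries held 12.4, 12.9, 10.6 and 10.3 CPM and splenic C26 libraries 11.7, 30.3, 20.7 and 40.3, of which replicate 1 lay within the sham range. Control libraries held 9.58, 11.8, 11.3 and 8.78 CPM and subcutaneous C26 libraries 40.0, 39.1, 15.7 and 41.4, all higher and with replicate 3 nearest to control. The log2 fold changes were 1.16 ± 0.33 (SE, adjusted p = 0.00898) and 1.72 ± 0.33 (SE, adjusted p = 0.000954). Without the 3 libraries with the most Ucp1 the first was 1.21 and did not pass (0.0693). Its relative Slc25a36 did not pass, at -0.01 ± 0.13 (SE, adjusted p = 0.933) and 0.20 ± 0.13 (SE, adjusted p = 0.205).

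Slc25a39 and Slc25a40 (chr5:8422850-8454797, plus strand) carry glutathione into mitochondria, and both fell in both comparisons. Slc25a40 stood at 5.71, 4.21, 6.08 and 4.46 CPM in sham and 3.89, 2.17, 2.73 and 2.21 in splenic C26, and at 5.81, 5.48, 5.56 and 6.06 in control and 2.48, 1.87, 4.68 and 2.07 in subcutaneous C26. No tumour library reached its tumour-free group. The log2 fold changes were -0.89 ± 0.27 (SE, adjusted p = 0.013) and -1.05 ± 0.27 (SE, adjusted p = 0.00551). Without the 3 libraries with the most Ucp1 the first was -0.87 and did not pass (0.0776). Slc25a39 went from a range of 42.9 to 66.2 to one of 33.5 to 45.0 CPM and from a range of 49.0 to 57.3 to one of 31.1 to 43, with -0.40 ± 0.14 (SE, adjusted p = 0.0266) and -0.51 ± 0.14 (SE, adjusted p = 0.00766). Its splenic call was lost without sham replicate 2 (-0.26, adjusted p = 0.116) or splenic C26 replicate 1 (-0.31, 0.0623), and its subcutaneous call held in every alternative.

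Slc25a16 fell in subcutaneous C26 at -0.40 ± 0.13 (SE, adjusted p = 0.0182), from a range of 32.9 to 39.7 to one of 23.4 to 35.2 CPM. It missed the threshold without control replicate 4 (-0.36, adjusted p = 0.0503), while in splenic C26 the gene missed the threshold at -0.27 ± 0.13 (SE, adjusted p = 0.0957) and passed without replicate 4 (-0.35, 0.0350). Neither comparison passed for Slc25a17 of peroxisomes (-0.03 and -0.02), Slc25a26, which carries S-adenosylmethionine (-0.25 and -0.26), Slc25a32, which carries folate or FAD (-0.14 and 0.36), Slc25a42, which carries coenzyme A (0.19 and 0.10), and Slc25a51, which carries NAD (-0.09 and 0.05). Without subcutaneous C26 replicate 3, Slc25a26 (-0.43, adjusted p = 0.0246) and Slc25a32 (0.46, 0.0230) passed in subcutaneous C26.

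Both mitoferrins, which bring iron to the sites of haem and iron-sulfur synthesis, were measured. Slc25a28 (chr19:43663801-43674881, minus strand), mitoferrin-2 of most tissues, rose. It stood at 25.8, 22.0, 22.6 and 22.6 CPM in sham, 35, 66.4, 110.4 and 82.3 in splenic C26, 24.3, 22.4, 31.5 and 29.8 in control and 48.8, 58.3, 43 and 56.1 in subcutaneous C26. Neither comparison had an overlap, and the log2 fold changes of 1.66 ± 0.25 (SE, adjusted p = 0.000196) and 0.94 ± 0.24 (SE, adjusted p = 0.00601) held in every alternative. Slc25a37 (chr14:69241848-69285112, minus strand), mitoferrin-1 of red cell precursors, did not pass. Its levels were 25.8, 19.4, 23.7 and 22.1 CPM in sham, 15.2, 12.0, 23.0 and 21.7 in splenic C26, 19.1, 20.7, 20.8 and 28.0 in control and 14.4, 13.7, 19.6 and 38.8 in subcutaneous C26, for -0.34 ± 0.29 (SE, adjusted p = 0.339) and -0.04 ± 0.29 (SE, adjusted p = 0.926). The highest of these, subcutaneous C26 replicate 4, was also the library with the most Slc4a1, the anion exchanger of red cells, at 70.2 CPM, where the other 15 libraries had 17.4 or less. The 4 measured red cell and erythroblast markers of 9 summed to 4.45 to 6.22 CPM in sham, 11.7 to 46.1 in splenic C26, 4.18 to 14.7 in control and 8.86 to 132 in subcutaneous C26, with none at 0 in a group.

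Of 11 partner genes of iron, haem and iron-sulfur clusters, 3 rose and 3 fell in splenic C26, and 2 rose and 2 fell in subcutaneous C26. In either direction, 52.0% and 50.0% of all genes passed. Tfrc, the transferrin receptor, fell by 3.92 ± 0.29 (adjusted p = 3.41e-06) and 3.01 ± 0.28 (1.04e-05). Hmox1, which breaks haem down, rose by 1.96 ± 0.36 (0.000734) and 2.53 ± 0.37 (0.000185). Among 12 other mitochondrial carriers and carrier-like proteins, 1 rose (Mtch1) and 4 fell in splenic C26 and 6 fell in subcutaneous C26. Mpc2, a subunit of the mitochondrial pyruvate carrier, fell by 0.71 ± 0.20 (0.00838) and 0.94 ± 0.20 (0.00171), and Mtfp1, a mitochondrial fission protein, by 1.68 ± 0.37 (0.00209) and 1.68 ± 0.37 (0.00222).

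The machinery that inserts carriers into the inner membrane was read as well. Of 12 measured genes of the TIM22 import pathway, 4 rose and 2 fell in splenic C26 and 3 rose and 2 fell in subcutaneous C26. Timm22, the channel subunit, fell by 1.0 ± 0.22 (adjusted p = 0.00213) and 0.81 ± 0.22 (0.00746), and Agk, another subunit of the complex, fell in both, by 0.62 ± 0.17 (0.00679) in subcutaneous C26. Timm10, a small chaperone of the intermembrane space, rose by 0.90 ± 0.22 (0.00440) in splenic C26.

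For no member was the effect of the tumour shown to differ between the splenic and the subcutaneous experiment. The test of the difference passed for 0 of 42 members and 0% of all genes in edgeR, for 5 members at an unadjusted p below 0.05, and for 0 members in DESeq2 and limma-voom. The smallest p belonged to Slc25a22, with a difference of 1.18 ± 0.35 (adjusted p = 0.397). Slc25a29 followed at 1.25 ± 0.50, then Slc25a13 at 1.06 ± 0.48, Slc25a32 at -0.50 ± 0.23 and Ucp3, with adjusted p-values of 0.671 to 0.771. These are splenic minus subcutaneous effects on the log2 scale. In simulated counts of the same design, edgeR found 22% of 2-fold and 78% of 4-fold differences of this kind.

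Sham and control, the tumour-free groups, were also set against each other. The test passed for 0 of 42 members and 0.00751% of all genes in edgeR, and Slc25a25 was the 1 member with an unadjusted p below 0.05. It was also the 1 member whose groups did not overlap, where 2.46% of all genes were higher in every sham library and 2.39% lower. For comparison, members without overlap numbered 5 higher and 10 lower in splenic C26 against sham, where 21.1% of all genes were higher and 21.1% lower in every library. In subcutaneous C26 against control 8 members were higher and 10 lower without overlap, where 25.2% and 20.7% of all genes were.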

How the data were processed

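Messenger RNA of mouse quadriceps was sequenced as paired reads of 75 bases, with RNA isolation and sequencing of all libraries done together, per the labels' protocols. The deposited table of raw counts per gene symbol was made by the authors with STAR and featureCounts, per the labels, and the submitters' processing notes name FastQC, STAR, edgeR and mm10; for their versions and for strand, the sources used here give nothing. The deposited log2 table holds log2 RPKM: it equalled log2 CPM (TMM, prior count 2) minus the log2 of 1 length per gene, whole within 0.01 bases for 13305 of 13320 genes. From the counts, 4013 blank lines without a gene were left out.

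Groups came from the tumour label, and replicate numbers (accession order) name libraries without pairing them. The main test was edgeR 4.0.16 under R 4.3.3: all 16 libraries, a mean for each group, TMM, a robust quasi-likelihood fit, and Benjamini-Hochberg adjustment at 0.05. TMM factors were 0.802 to 1.21. Chi-square per degree of freedom was 12.9 or more for each pair within a group; none was treated as a repeat library. Alternatives used limma 3.58.1, DESeq2 1.42.0, other scalings, filters and thresholds, and omitted libraries. The removal of the 3 libraries with the most Ucp1, the joint removal of splenic C26 replicate 1 and subcutaneous C26 replicate 3, and the lengths recovered from the log2 table were chosen after seeing the data. Members, lists and motifs were chosen with earlier results of these data known. A member counted in the totals is not reported here.

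Values in every library are given for members with an adjusted p below 0.05, at least a 2-fold change and a mean of at least 1 CPM in a tumour comparison, and for 12 members fixed by name. Of partner lists, counts and the 2 genes with the smallest p are given; further names were picked after their values were seen. Of all symbols, 96.6% matched GENCODE M21 (mm10), and promoter windows came from RefSeq. On simulated counts of 13320 genes with 200 changed, edgeR found 48% (2-fold) and 85% (4-fold) of them for splenic C26 against sham, with 6 unchanged genes among 139 calls, and 53% and 85% for subcutaneous C26 against control, with 8 among 146. In the data 52.0% and 50.0% of all genes passed, far more than were changed in the simulation, so these rates may not hold for the real comparisons.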

Additional observations from a re-analysis of the deposited data

Results flagged for a closer look

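Within groups of 4, 88 sets of member values were tested for a library set apart from the other 3, and 5 were; chance alone sets about 5% apart. In subcutaneous C26, replicate 3 was set apart for 3 members: Slc25a11 stood at 271.5 CPM against 107 to 127 in the other 3 libraries, Slc25a4 at 3079 CPM against 1056 to 1284, and Slc25a33 at 15.74 CPM against 39.1 to 41.4. In each of these 3 the value lay nearer to the control libraries than the other tumour libraries did. Slc25a25 stood at 1261 CPM in splenic C26 replicate 3, against 60.1 to 245 CPM in the rest of its group. Slc25a28 stood at 25.76 CPM in sham replicate 1, against 22.0 to 22.6 CPM.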

How the results depend on the processing

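Of 84 member values in the tumour comparisons, 46 passed. In every alternative that kept the member, 25 of these passed, and 25 of those that did not pass failed. A member removed by a filter was not tested in that alternative. No value changed sign while it passed. In splenic C26 against sham, the 11 members higher became 7 with upper-quartile scaling, 7 at an adjusted p below 0.01 and 6 without the 3 libraries with the most Ucp1, and the 12 lower became 5 at an adjusted p below 0.01 and 6 without those libraries. The median of members moved from -0.07 to -0.31 with upper-quartile scaling and to 0.042 without those libraries, and in subcutaneous C26 from -0.10 to -0.34 with upper-quartile scaling, which also shifts all genes. When each library was left out in turn, 8 to 14 members were higher and 8 to 11 lower in splenic C26, 6 to 9 higher and 12 to 16 lower in subcutaneous C26, and the medians ranged from -0.14 to 0.0015 and from -0.21 to -0.09; 0 members passed in the difference between the effects or in sham against control. The cause of these shifts was not tested, beyond the fewer libraries and the stricter threshold. A filter at 5 CPM removed 6 members, and the 5 highest levels per kilobase were the same 5 genes with each of the 3 gene lengths tried. No paired analysis was possible because the labels give no replicate number shared between groups. Members of few counts, such as Slc25a48 with 0 to 32 per library, are limited by depth.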
